A study of Mus musculus with 2 samples.

Results

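The genes described here are those of tumour necrosis factor (TNF) signalling and of the feedback loop of NF-kB. They are Tnf, its receptors Tnfrsf1a and Tnfrsf1b, the inhibitors Nfkbia and Tnfaip3, the IkB family gene Nfkbiz, and the NF-kB subunit genes Nfkb1 and Relb. Each was taken by its gene symbol, and all 8 were found among the 24984 genes listed in each library. TNF is an inflammatory cytokine released mainly by myeloid cells. It binds TNFR1 (Tnfrsf1a), which most cells carry, and TNFR2 (Tnfrsf1b), which is mostly found on leukocytes and some endothelial cells. Receptor binding activates the IKK kinases, which mark the inhibitor IkBa (Nfkbia) for degradation, and the freed NF-kB dimers enter the nucleus. NF-kB then drives the transcription of its own brakes, among them Nfkbia and the ubiquitin editing enzyme A20 (Tnfaip3), so the RNA of these genes is often read as a trace of recent pathway activity. In dystrophic muscle, infiltrating macrophages are a known source of TNF.

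The mice were mdx mice, a dystrophin-deficient model of Duchenne muscular dystrophy, and live mononuclear cells of their hind limb muscles were sorted for single cell RNA-seq. The study examined how loss of the transcription factor YY1 in muscle stem cells (MuSCs) alters the other cells of the muscle. The Ctrl group was Pax7CreERT2/R26YFP; Yy1+/+; mdx and the dKO group was Pax7CreERT2/R26YFP; Yy1f/f; mdx. Both received tamoxifen at 1.5 months of age and muscles were taken 1 month later. The labels list the Ctrl group as untreated, while the study's methods give tamoxifen to both. The CreERT2 is driven by Pax7, which among these cells marks MuSCs. Each group is 1 library made from 3 pooled mice. Without replicate libraries, differences could not be set against the spread between mice, and no statistical test was made.

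RNA molecules were counted by unique molecular identifiers (UMIs). Deposited were 4527 Ctrl cells with 45556596 UMIs in total and 3483 dKO cells with 33815155. After filtering, 4010 Ctrl cells (median of 7880 UMIs) and 3079 dKO cells (median of 7806) were kept, and 7 cell barcodes occurred in both libraries. Cells were grouped into classes named from marker genes, written as "like". Levels are given as CPM, the UMIs of a gene over all UMIs of its class, as counts per 1000000, with 95% intervals that cover counting error only. The deleted gene was examined first. The 118 MuSC-like cells of Ctrl held 369 Yy1 UMIs (160 CPM) and the 30 of dKO held 3 (4.85 CPM), all in 1 cell. The MuSC-like cluster was led by Gal, Ttn, Myog and Chrna1 and by Mymx, Myod1 and Mymk, which are mostly genes of differentiating and fusing myogenic cells, and 57.6% of its cells in Ctrl and 36.7% in dKO had a UMI of the stem cell gene Pax7. Over all cells Yy1 stood at 147 CPM in Ctrl and 143 CPM in dKO.

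Members of this loop carry known binding sites for NF-kB in their own promoters, so the sequence before the RefSeq start is shown for the ligand and for both inhibitors that belong to the classical loop. RefSeq promoters (build GRCm38.p6) were matched by symbol for 5 of the 8 genes, with 2 entries for Tnfaip3, and none was matched for Nfkbiz, Nfkb1 and Relb. The 250 bases before each start were searched on both strands for the kB consensus of 10 bases, which occurred in 2382 of 32851 promoters of that length (7.3%). Shown are the last 130 bases before the RefSeq start, 5′ to 3′ on the strand of the gene, with matches to the consensus in capitals. The windows are chr17:35202008-35202137 for Tnf, chr12:55492648-55492777 for Nfkbia and chr10:19015411-19015540 for Tnfaip3, each on the minus strand.
Tnf: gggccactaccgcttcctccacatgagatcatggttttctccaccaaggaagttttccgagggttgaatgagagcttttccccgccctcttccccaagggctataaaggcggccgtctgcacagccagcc
Nfkbia: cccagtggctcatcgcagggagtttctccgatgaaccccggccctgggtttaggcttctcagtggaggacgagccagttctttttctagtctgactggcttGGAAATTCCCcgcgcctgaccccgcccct
Tnfaip3: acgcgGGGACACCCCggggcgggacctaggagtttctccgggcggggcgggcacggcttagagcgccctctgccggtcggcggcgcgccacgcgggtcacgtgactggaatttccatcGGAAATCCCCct
The match in Nfkbia lay 29 to 20 bases before the start, and those in Tnfaip3 lay 125 to 116 and 12 to 3 bases before it. No match occurred in the 250 bases searched for Tnf, Tnfrsf1a or Tnfrsf1b, nor in the second entry of Tnfaip3. A match describes letters in the window and not a bound site.

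The genes lie apart in the genome (GENCODE M21, GRCm38, all protein coding). Tnf is at chr17:35199381-35202007, Tnfrsf1a at chr6:125349362-125362484 and Tnfrsf1b at chr4:145213463-145246870. Nfkbia is at chr12:55489410-55492647, Nfkbiz at chr16:55811375-55838899 and Tnfaip3 at chr10:19000910-19015657. Nfkb1 is at chr3:135584655-135691547 and Relb at chr7:19606217-19629438. By this annotation the Tnfaip3 gene begins upstream of the RefSeq start used above, so the Tnfaip3 window shown and both its matches lie inside the gene. The window searched for Tnfrsf1a lies inside its gene as well, whereas those of Tnf, Nfkbia and Tnfrsf1b end at the base next to it.

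The ligand and the receptor Tnfrsf1b had most of their RNA in the same class, whereas Tnfrsf1a was spread more widely. Monocyte and macrophage-like (MO/MP-like) cells, 1319 in Ctrl and 1010 in dKO, held 69.6% of all Tnf UMIs in Ctrl and 70.5% in dKO. Neutrophil-like cells, whose 98 Ctrl and 36 dKO cells were shallow, had the highest Tnf level, 129 CPM in Ctrl (94.5 to 172) and 335 CPM in dKO (227 to 475), with 34.8% and 32.3% of these Tnf UMIs in 1 cell. MO/MP-like cells followed at 69.6 CPM (64.9 to 74.6) and 125 CPM (117 to 133), and in both libraries the intervals of these first 2 classes overlapped neither each other nor that of the next class. Without the cell with most Tnf UMIs in each class, neutrophil-like cells stood at 84.7 CPM in Ctrl (57.2 to 121), which overlapped MO/MP-like cells at 67.3 CPM (62.6 to 72.1), and at 233 CPM in dKO (144 to 355), which did not. Below them, endothelial cell-like (EC-like), B cell-like, T cell-like and cycling MO/MP-like cells had overlapping Tnf intervals between neighbours in Ctrl, from 51.4 down to 32.3 CPM. Tnf stood at 1.82 CPM in Ctrl and 4.18 CPM in dKO fibro-adipogenic progenitor-like (FAP-like) cells. MuSC-like cells held 1 Tnf UMI in each library, and tenocyte-like cells 0 and 1.

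Shares of cells with a UMI were compared at 2000 UMIs per cell, which evens out depth. Free RNA can still place UMIs in cells that do not express a gene. EC-like and B cell-like cells were chosen to read it, and FAP-like cells, a stromal class, are given as well. Without thinning, 25.2% of MO/MP-like cells in Ctrl and 31.6% in dKO had a Tnf UMI, and 1.82% and 2.61% of FAP-like cells. At 2000 UMIs, which left out 145 Ctrl and 105 dKO MO/MP-like cells, Tnf was seen in 11.2% of MO/MP-like cells in Ctrl (132 of 1174) and 18.3% in dKO (166 of 905). In FAP-like cells the shares were 0.0967% (1 of 1034) and 0.548% (6 of 1094). The median depths were 7592 and 6603 UMIs in MO/MP-like and 11769 and 11870 in FAP-like cells. Tnf was thus seen in MO/MP-like cells at a share above that in the deeper FAP-like cells. EC-like cells stood at 9.30% in Ctrl (37 of 398) and 4.90% in dKO (7 of 143), and B cell-like cells at 6.19% and 4.23%.

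The receptors had different ranges. Tnfrsf1b followed the ligand, and MO/MP-like cells held 70.0% (Ctrl) and 66.0% (dKO) of it. Its level was 200 CPM in Ctrl and 259 CPM in dKO MO/MP-like cells, against 13.3 and 14.3 CPM in FAP-like, 4.76 and 8.08 CPM in MuSC-like and 2.57 and 3.39 CPM in tenocyte-like cells. Tnfrsf1a was found across stromal, vascular and myeloid classes alike. It was highest in neutrophil-like and EC-like cells (253 and 218 CPM in Ctrl, with overlapping intervals), intermediate in FAP-like cells (136 CPM) and lower in MuSC-like (40.2 CPM) and T cell-like cells (39.2 CPM). B cell-like cells held 0 Tnfrsf1a UMIs in Ctrl (a count of 0 allows up to 8.29 CPM at 3 counts) and 2 in dKO. MuSC-like cells, the class with almost no Yy1 RNA in dKO, held RNA of the receptor Tnfrsf1a and almost none of the ligand.

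Of the inhibitors, Nfkbia was highest in EC-like cells in Ctrl, at 1795 CPM (1745 to 1847), above every other class. In dKO, neutrophil-like cells (2365 CPM, 2062 to 2700) and EC-like cells (2290 CPM, 2191 to 2393) shared the top with overlapping intervals. The lowest Nfkbia levels were in cycling MO/MP-like cells, 350 CPM in Ctrl and 384 CPM in dKO. Tnfaip3 was highest in T cell-like cells in both libraries, at 358 CPM (302 to 421) and 375 CPM (323 to 434). The T cell-like class also carried NK cell markers, given below. The next class, MO/MP-like cells, stood at 113 and 173 CPM. Nfkbiz, which encodes the nuclear IkB family protein IkBz, had 9 of 11 pairs of neighbouring classes with overlapping intervals in Ctrl. There the first 5 classes ran from 326 CPM in T cell-like to 290 CPM in smooth muscle and pericyte-like cells. MuSC-like cells had the lowest Nfkbiz and Tnfaip3 levels in both libraries (72.7 and 31.6 CPM in Ctrl). In both, their Tnfaip3 interval overlapped that of the next class, and their Nfkbiz interval did not.

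The subunit genes differed less between neighbouring classes. Nfkb1, which encodes p105 and p50, ranged in Ctrl from 199 CPM in T cell-like to 68.7 CPM in tenocyte-like cells, and 10 of 11 pairs of neighbouring classes had overlapping intervals. Relb, the partner of p52 in the non-canonical pathway, ranged in Ctrl from 52.5 CPM in B cell-like to 16.8 CPM in cycling FAP-like cells, with overlap in 11 of 11 pairs. In dKO it stood at 129 CPM in dendritic cell-like cells, again with overlap in 11 of 11 pairs.

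**Figure D1:**
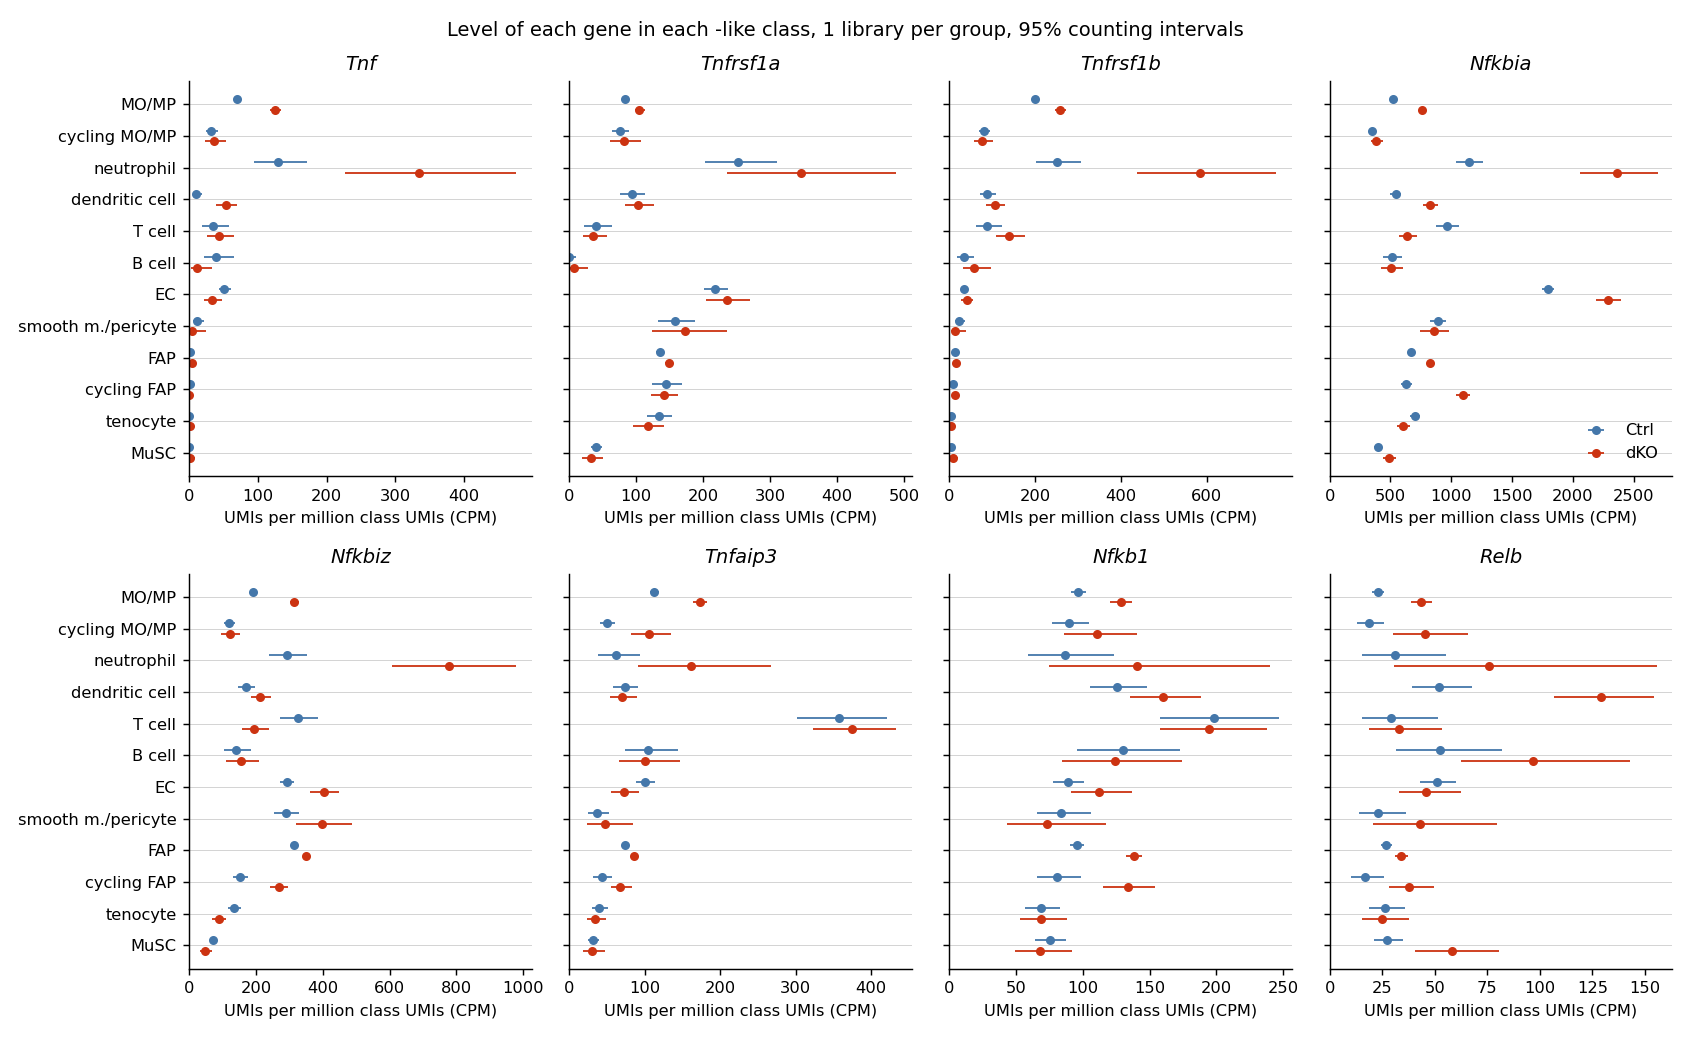
Level of each of the 8 genes (x axis, CPM) in 12 cell classes (y axis, names without "like") in the Ctrl (blue) and dKO (red) library; points are values from summed UMIs and lines their 95% counting intervals, which do not cover differences between mice. Tnf and Tnfrsf1b are high in neutrophil-like and MO/MP-like cells and low in stromal classes, Nfkbia is high in EC-like cells, and Tnfaip3 stands apart in T cell-like cells.

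In MO/MP-like cells the level of each of the 8 genes in dKO was above that in Ctrl, with no counting interval reaching a ratio of 1. A gene was counted as higher or lower at 1.5-fold or more with at least 100 UMIs over both libraries, and 4 of 8 were higher and 0 lower. Over all 8456 genes tested in this class, 4.62% were higher and 3.11% were lower, and the median log2 ratio was 0.00. The median over the 8 genes was 0.58. Tnf went from 814 UMIs (69.6 CPM) to 910 UMIs (125 CPM), a ratio of 1.80 (1.63 to 1.98). The cell with most Tnf held 3.44% of the Tnf UMIs in Ctrl and 3.41% in dKO.

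Nfkbiz went from 191 to 315 CPM (ratio of 1.65, 1.55 to 1.75) and Tnfaip3 from 113 to 173 CPM (1.53, 1.42 to 1.66). Nfkbia went from 6093 UMIs (521 CPM) to 5501 UMIs (756 CPM), a ratio of 1.45 (1.40 to 1.504), under 1.5-fold, and reached 1.5-fold when cells with at least 200 genes were kept (log2 ratio of 0.59 in place of 0.54). Tnfaip3 also lay under 1.5-fold when the mean of each cell's own CPM was taken (log2 ratio of 0.45 in place of 0.62). Relb had a ratio of 1.91 (1.62 to 2.25), from 22.8 to 43.5 CPM, and Nfkb1 went from 96.5 to 128 CPM (1.33, 1.22 to 1.45). The receptors had ratios of 1.248 (1.13 to 1.37) for Tnfrsf1a and 1.29 (1.21 to 1.37) for Tnfrsf1b.

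Genes known to be induced by tissue dissociation lay in the same direction. Of 11 immediate early and heat shock genes, 4 were higher in dKO MO/MP-like cells (Fosb 1.58, Egr1 1.57, Atf3 1.55 and Dnajb1 1.51 in ratio) and all 11 had a ratio above 1, with a median log2 ratio of 0.53 and a summed level of 8357 CPM in Ctrl and 11139 CPM in dKO. The 14 MO/MP markers were all detected and nearly level (20556 and 21131 CPM). The 12 FAP markers, all detected, summed to 567 and 776 CPM, and the 8 neutrophil markers, all detected, to 217 and 109 CPM. The 6 lymphatic EC markers, which include Lyve1, summed to 23.6 CPM with 5 detected in Ctrl (Ccl21a at 0) and 56.5 CPM with 2 detected in dKO (Prox1, Flt4, Ccl21a and Reln at 0). The 4 erythroid markers with a UMI in both libraries summed to 11.2 CPM in Ctrl and 51.5 CPM in dKO. Lower in dKO were the summed mast cell markers (6 of 6 detected in each, 40.1 and 19.8 CPM), dendritic cell markers (10 of 10 in each, 135 and 86.0 CPM) and smooth muscle and pericyte markers (19.7 CPM with Cnn1 and Pln at 0 in Ctrl, 7.14 CPM with Cnn1, Lmod1 and Kcnj8 at 0 in dKO). The part of these in the ratios above was not tested.

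**Figure D2:**
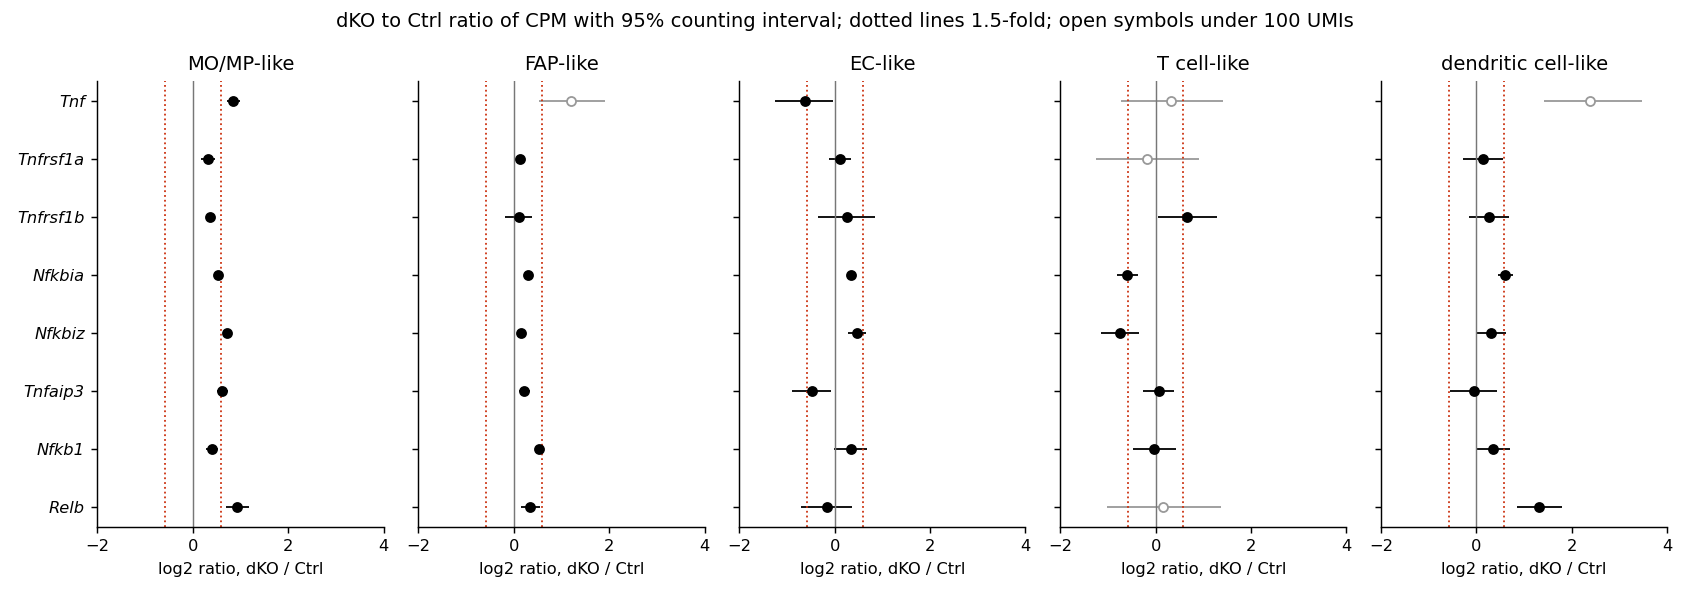
Log2 ratio of CPM, dKO over Ctrl (x axis), of the 8 genes (y axis) in the 5 classes with at least 100 cells in each library; points are ratios, lines 95% counting intervals, dotted lines 1.5-fold, and open symbols genes under 100 UMIs. In MO/MP-like cells every point lies to the right of 0, whereas in EC-like and T cell-like cells the points fall on both sides.

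The higher levels were found in each of the 4 MO/MP-like clusters. Over the 4 clusters and 8 genes, 32 of 32 ratios were above 1, and 22 had a counting interval wholly above 1. The shares of the clusters in the class UMIs differed between Ctrl and dKO. By leading gene they were 47.4% and 45.0% (Apoe), 16.4% and 20.8% (Slpi), 9.71% and 13.9% (Fcna) and 26.5% and 20.4% (Rnf128). The part of these shares in the class ratios was not tested. The largest cluster, led by Apoe with C1qa, had 538 Ctrl and 405 dKO cells. There Tnf went from 43.2 to 83.4 CPM (ratio of 1.93, 1.62 to 2.31), Nfkbiz had a ratio of 1.82 and Tnfaip3 of 1.80, and Nfkbia, at 1.63, was also past 1.5-fold. The cluster led by Slpi, with Il1b and Ly6c2 among its leading genes as in inflammatory monocytes, had the highest level of each of the 8 genes among the 4 clusters in both libraries. Its ratios were smaller for 3 of the genes counted as higher in the class: Tnf went from 153 to 219 CPM (1.44, 1.22 to 1.69), Nfkbiz went from 353 to 441 CPM (interval of the ratio 1.12 to 1.39) and Tnfaip3 had a ratio of 1.31, whereas Relb had 1.92.

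In the cluster led by Fcna and Cd163, a set of genes known from resident macrophages, Tnf went from 106 to 190 CPM (1.80, 1.43 to 2.28) whereas Nfkbia went from 424 to 499 CPM (1.18, 1.04 to 1.34). The cluster led by Rnf128 and Spp1 had the lowest Nfkbia, Nfkbiz and Nfkb1 levels of the 4 in both libraries, and its Nfkbia ratio was 1.08 (0.981 to 1.19). An unnamed cluster of 102 Ctrl and 120 dKO cells, led by Dcstamp, Ear2 and Retnla, had 14 of 14 MO/MP markers enriched, and was left unnamed since Itgax of the dendritic cell list was among its leading genes. There Tnf went from 33 UMIs (23.9 CPM) to 158 UMIs (118 CPM), a ratio of 4.94 (3.38 to 7.42) with 22.2% of the dKO UMIs in 1 cell, and Nfkbia from 369 to 827 CPM (2.24, 2.02 to 2.50). Nfkb1 differed little there (179 and 193 CPM, 1.08, 0.902 to 1.29). Counting these cells with MO/MP-like cells made 5 of 8 genes higher in place of 4, by adding Nfkbia.

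**Figure D3:**
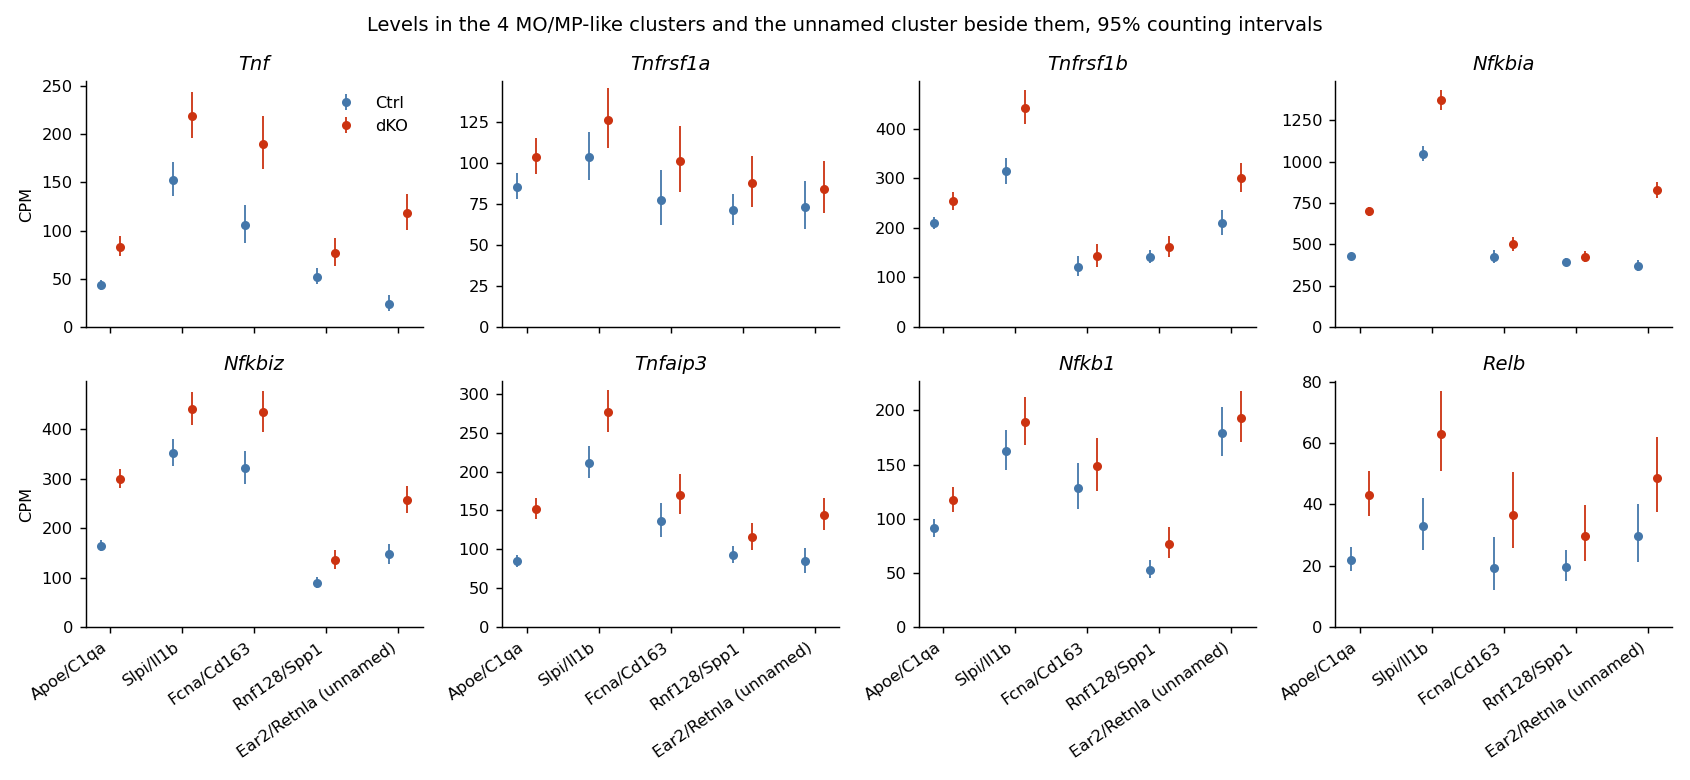
CPM (y axis) of the 8 genes in the 4 MO/MP-like clusters and the unnamed cluster led by Dcstamp, Ear2 and Retnla (x axis, named by leading genes), in Ctrl (blue) and dKO (red), with 95% counting intervals. In each of the 5 clusters the dKO value lies above the Ctrl value, in the unnamed cluster by a ratio of 4.94 for Tnf and 2.24 for Nfkbia.

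In FAP-like cells, with 1097 Ctrl and 1148 dKO cells the largest stromal class, none of the genes with enough UMIs differed by 1.5-fold. Of the 7 genes tested 0 were higher and 0 lower, against 2.58% of 10251 genes higher and 3.05% lower. All 7 ratios were above 1, with a median log2 ratio of 0.22 beside −0.06 over all genes tested. Nfkb1 went from 95.5 to 138 CPM (ratio of 1.45, 1.35 to 1.55), and passed 1.5-fold when ratios were scaled to the median gene (log2 ratio of 0.60). Nfkbia went from 669 to 829 CPM (1.24, 1.21 to 1.27), Relb from 26.8 to 34.2 CPM (1.27, 1.12 to 1.45) and Tnfaip3 from 73.6 to 85.9 CPM (1.17, 1.08 to 1.27). Tnfrsf1a and Nfkbiz had ratios of 1.10 and 1.11, and the interval of Tnfrsf1b (1.07, 0.883 to 1.31) included 1.

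Tnf had 27 and 64 UMIs in FAP-like cells, a ratio of 2.30 (1.45 to 3.76) on too few UMIs to be counted, and 22.2% of those in Ctrl and 28.1% of those in dKO came from 1 cell. Over the 3 FAP-like clusters and 8 genes, 19 of 24 ratios were above 1 and 12 had a counting interval wholly above 1. Nfkbiz was above 1 in 1 of 3 clusters (0.909 to 1.34), and Tnfaip3 (0.807 to 1.32), Tnfrsf1b (0.824 to 1.24) and Tnfrsf1a (0.9748 to 1.36) in 2 of 3. The inhibitor Nfkbia was above 1 in all 3 and differed in size of ratio. It went from 472 to 713 CPM in the cluster led by Inmt (1.51, 1.45 to 1.58), from 937 to 982 CPM in the cluster led by Cxcl5 (1.05, 1.01 to 1.09) and from 667 to 785 CPM in the cluster led by Cxcl13 with Pi16 (1.18, 1.08 to 1.28). The Cxcl5 cluster had the highest Nfkbia level in both libraries. The 11 immediate early and heat shock genes were at a median log2 ratio of −0.13 in FAP-like cells, with 0 higher, 0 lower and 3 of 11 above 1. Markers of other classes differed in both directions. In Ctrl and dKO, EC markers (12 of 12 detected in each) were at 23.2 and 9.94 CPM, myocyte markers (9 of 9) at 39.0 and 13.7 CPM, cell cycle genes (11 of 11) at 39.2 and 24.2 CPM and neutrophil markers (8 of 8 in Ctrl, 7 of 8 in dKO with Ly6g at 0) at 46.6 and 27.2 CPM. B cell markers were at 188 CPM in Ctrl (5 of 6, Ms4a1 at 0) and 220 CPM in dKO (6 of 6), tenocyte markers (8 of 8) at 2228 and 2024 CPM, and the 3 erythroid markers with a UMI in both libraries at 0.404 and 2.88 CPM. Their part in the ratios was not tested.

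In EC-like cells, 465 in Ctrl and 179 in dKO, 0 of 8 genes were higher and 1 was lower, against 4.6% of 4736 genes higher and 7.33% lower. The lower gene was Tnf, from 137 UMIs (51.4 CPM) to 29 UMIs (33.3 CPM), a ratio of 0.648 (0.418 to 0.972). This difference was not seen within the cluster that held most of the Tnf UMIs. The cluster led by Gpihbp1, a capillary gene, held 129 of the 137 Ctrl UMIs and 29 of the 29 dKO UMIs, and its Tnf level was 82.8 CPM in Ctrl and 82.1 CPM in dKO (ratio of 0.991, 0.639 to 1.49). It made up 58.4% of the class UMIs in Ctrl and 40.5% in dKO. The cluster led by Selp, a venule gene, held 1 Tnf UMI in Ctrl and 0 in dKO, and the cluster led by Cytl1 and Gja5 held 7 and 0. Tnf also lay under 1.5-fold without doublet removal, with a lower gene minimum per cell, with the mean over cells and at 2000 UMIs per cell.

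The IkB genes in EC-like cells had ratios above 1, Nfkbia from 1795 to 2290 CPM (1.28, 1.21 to 1.34) and Nfkbiz from 292 to 404 CPM (1.38, 1.22 to 1.57). Tnfaip3 went the other way, from 268 UMIs (101 CPM) to 63 UMIs (72.3 CPM), a ratio of 0.719 (0.538 to 0.949) that was below 1 in all 3 EC-like clusters (0.798, 0.629 and 0.512). Relb (0.900), Tnfrsf1a (1.08), Tnfrsf1b (1.203) and Nfkb1 (1.27) had intervals that included 1, and Tnfrsf1b was past 1.5-fold without doublet removal (log2 ratio of 0.79). The FAP markers summed to 1675 CPM in EC-like cells of Ctrl (11 of 12 detected, Inmt at 0) and 2196 CPM in dKO (10 of 12, Pdgfra and Inmt at 0). Smooth muscle and pericyte markers summed to 886 CPM in Ctrl (10 of 11 detected, Cnn1 at 0). In dKO they summed to 550 CPM (8 of 11, Cnn1, Lmod1 and Cspg4 at 0). Further sums are over markers with a UMI in both libraries. The 4 erythroid markers summed to 97.1 and 37.9 CPM and 8 cell cycle genes to 51.0 and 20.7 CPM. Sums were 182 and 98.7 CPM for 4 dendritic cell markers and 31.9 and 11.5 CPM for 3 myocyte markers. Tenocyte markers went the other way (6 markers, 34.9 and 56.2 CPM). Their part in the ratios was not tested.

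T cell-like cells (119 in Ctrl, 138 in dKO) also carried NK cell markers. The 7 T cell markers, all detected, summed to 2167 CPM in Ctrl and 2352 CPM in dKO. The 7 NK cell markers, all detected, summed to 1704 and 1745 CPM, so values of this class may not be those of T cells alone. Of the 8 genes, 5 had enough UMIs. Tnfrsf1b was higher, and Nfkbia and Nfkbiz were lower, against 5.04% of 1211 genes higher and 2.23% lower. Nfkbia went from 393 UMIs (964 CPM) to 312 UMIs (640 CPM), a ratio of 0.664 (0.570 to 0.772), and Nfkbiz from 326 to 195 CPM (0.597, 0.454 to 0.783). Tnfrsf1b went from 36 to 68 UMIs (1.58, 1.04 to 2.44). Tnfaip3 (1.05, 0.839 to 1.31) and Nfkb1 (0.981, 0.722 to 1.34) had ratios near 1. All 3 differences lay under 1.5-fold at 2000 UMIs per cell, where the log2 ratio was −0.58 for Nfkbia, −0.41 for Nfkbiz and 0.35 for Tnfrsf1b. The 11 immediate early and heat shock genes summed to 17627 CPM in Ctrl and 14873 CPM in dKO. Of the 9 tested, 0 were higher, 1 was lower and 3 had a ratio above 1. Cell cycle genes summed to 174 CPM in this class in Ctrl (10 of 11 detected, Cdc20 at 0) and 429 CPM in dKO (11 of 11), and mast cell markers to 260 and 808 CPM (5 of 6 detected in each, Ms4a2 at 0). Dendritic cell markers summed to 211 CPM in Ctrl (2 of 10 detected, with Flt3, Cd209a, Xcr1, Clec9a, Zbtb46, Fscn1, Batf3 and Wdfy4 at 0) and 69.7 CPM in dKO (6 of 10, with Flt3, Cd209a, Clec9a and Fscn1 at 0). Neutrophil markers summed to 56.4 CPM in Ctrl (4 of 8, with Csf3r, Cxcr2, Ly6g and Lcn2 at 0) and 8.20 CPM in dKO (3 of 8, with S100a8, Retnlg, Cxcr2, Ly6g and Lcn2 at 0). Their part in the ratios was not tested.

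Dendritic cell-like cells (112 in Ctrl, 102 in dKO) had 2 of 7 genes higher and 0 lower, against 6.62% of 2507 genes higher and 3.23% lower. Relb, a gene needed for dendritic cell development, went from 56 UMIs (52.0 CPM) to 119 UMIs (129 CPM), a ratio of 2.48 (1.79 to 3.47), and its log2 ratio of 1.31 became 1.90 at 2000 UMIs per cell. Nfkbia went from 544 to 827 CPM (1.52, 1.36 to 1.70), and it lay under 1.5-fold without doublet removal, with pathway genes used for clustering, scaled to the median gene and at 2000 UMIs per cell (log2 ratios of 0.52 to 0.56). Nfkb1 (1.28), Nfkbiz (1.24), Tnfrsf1b (1.205), Tnfrsf1a (1.10) and Tnfaip3 (0.961) were under 1.5-fold, and both receptors were past it at 2000 UMIs per cell (log2 ratios of 0.66 for Tnfrsf1a and 0.59 for Tnfrsf1b). Tnf had 11 and 49 UMIs, and 59.2% of those in dKO came from 1 cell. Neutrophil markers summed to 162 CPM in Ctrl (6 of 8 detected, Cxcr2 and Ly6g at 0) and 313 CPM in dKO (3 of 8, Retnlg, Cxcr2, Mmp9, Ly6g and Lcn2 at 0), and the 10 dendritic cell markers, all detected, to 1246 and 1732 CPM. Their part was not tested.

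In classes with fewer cells only values are given. MuSC-like cells, which include differentiating myogenic cells, numbered 30 in dKO. Their Nfkbia level was 394 CPM in Ctrl and 491 CPM in dKO (ratio of 1.247, 1.09 to 1.42) and their Nfkbiz level 72.7 and 48.5 CPM (0.667, 0.437 to 0.988). Relb went from 63 UMIs (27.2 CPM) to 36 UMIs (58.2 CPM), a ratio of 2.13 (1.38 to 3.27), with 19.4% of the dKO UMIs in 1 cell. Tnfrsf1a (0.803, 0.469 to 1.31), Nfkb1 (0.902, 0.628 to 1.27) and Tnfaip3 (0.972, 0.554 to 1.63) had intervals that included 1.

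In neutrophil-like cells 4 of the 8 genes had at least 100 UMIs. Their ratios were 2.07 (1.74 to 2.44) for Nfkbia, 2.66 (1.94 to 3.63) for Nfkbiz, 2.33 (1.63 to 3.31) for Tnfrsf1b and 1.37 (0.884 to 2.07) for Tnfrsf1a, the last with an interval that included 1. On fewer UMIs, Tnf (2.59, 1.59 to 4.18) and Tnfaip3 (2.62, 1.27 to 5.29) had intervals above 1, and those of Nfkb1 (0.775 to 3.17) and Relb (0.805 to 6.92) included 1. Their median depth was 2385 UMIs in Ctrl and 1663.5 in dKO. Cycling FAP-like cells (36 in Ctrl, 38 in dKO) had ratios of 1.73 for Nfkbia, 1.76 for Nfkbiz, 1.65 for Nfkb1 and 1.58 for Tnfaip3. Cycling MO/MP-like cells (107 and 37) had a Tnfaip3 ratio of 2.13 (1.53 to 2.95), while Tnf stood at 32.3 and 35.8 CPM. In tenocyte-like cells Nfkbiz went from 136 to 88.0 CPM (0.649, 0.494 to 0.846).

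The wider pathway was read in MO/MP-like cells, layer by layer, with 4.62% of all genes higher and 3.11% lower as above. Of the other NF-kB subunits, 2 of 3 were higher, Rela (the p65 transactivating subunit, 49.0 to 76.5 CPM, ratio of 1.56) and Nfkb2 (27.0 to 43.3 CPM, 1.601), while Rel went from 210 to 282 CPM (1.35). Of the other IkB proteins, Bcl3 was higher (1.55), and Nfkbib, Nfkbie and Nfkbid had ratios of 1.45, 1.45 and 1.46. The IKK and NIK kinases, which act above NF-kB by phosphorylation, had 0 of 6 higher and 0 lower with a median log2 ratio of 0.06, among them Ikbkb at 41.1 and 40.8 CPM (0.994, 0.857 to 1.15).

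Of the TNF receptor signalling complex, 3 of 17 were higher and 0 lower. These were Traf1 (11.8 to 31.0 CPM, 2.63, 2.12 to 3.28), Birc3, which encodes cIAP2 (1.52), and Cflar, which encodes the caspase 8 inhibitor FLIP (1.57). Adaptors and ubiquitin ligases of the same complex such as Tab2 (0.951), Rbck1 (0.969) and Tradd (1.14) were not. Of the other brakes, 1 of 10 was higher, the A20-binding protein gene Tnip3 (51.2 to 92.2 CPM, 1.80, 1.61 to 2.01), and Zfp36 (1.38), Zc3h12a (1.43) and Cyld (0.844) were not. Of 3 genes of TNF release, Rhbdf2, whose product brings the shedding enzyme to the cell surface, was higher (26.7 to 42.7 CPM, 1.601). Adam17, the shedding enzyme, was at 156 and 148 CPM. Timp3, its inhibitor, was lower (75 UMIs to 25 UMIs, 0.535), on just enough UMIs to be tested. In Ctrl the 3 genes summed to 1185 CPM in EC-like and 189 CPM in MO/MP-like cells. The 12 EC markers, all detected, summed to 45.5 CPM in Ctrl and 30.5 CPM in dKO MO/MP-like cells. The part of RNA from other cells in the Timp3 ratio was not tested. Of 6 related ligands and receptors tested, Cd40 (1.78) and Tnfsf9 (1.68) were higher, and Tnfsf12 (0.817), Tnfrsf12a (1.45) and Ltbr (1.27) were not.

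Among 11 tested target genes of NF-kB, 4 were higher and 0 lower in MO/MP-like cells, and all 11 had ratios above 1. The chemokine gene Ccl4 went from 6009 UMIs (514 CPM) to 8240 UMIs (1132 CPM), a ratio of 2.20 (2.13 to 2.28). Il1b went from 361 to 598 CPM (1.65, 1.59 to 1.73), Ccl3 from 174 to 274 CPM (1.58) and Vcam1 from 23.1 to 44.8 CPM (1.94). Cxcl2 (1.38), Ier3 (1.31) and Ptgs2 (1.11) stayed under 1.5-fold.

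In FAP-like cells the layers differed from each other in another way. Over all 10251 genes tested in this class, 2.58% were higher and 3.05% lower, as above. The other NF-kB subunits, the other IkB proteins, the kinases, the receptor complex, TNF release and the related ligands and receptors had 0 genes higher and 0 lower, with median log2 ratios between −0.07 and 0.10. Of 9 other brakes, only Zc3h12a was higher (26.3 to 40.8 CPM, 1.55). Of 10 target genes tested, 3 were higher and 0 lower: Cxcl2 (409 to 695 CPM, 1.70), Ptgs2 (359 to 557 CPM, 1.55) and Sod2 (86.7 to 131 CPM, 1.51). The target genes Cxcl1 (1.34), Il6 (1.27) and Icam1 (1.16) were not. The median log2 ratio of the targets was 0.34, beside 0.46 in MO/MP-like cells.

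**Figure D4:**
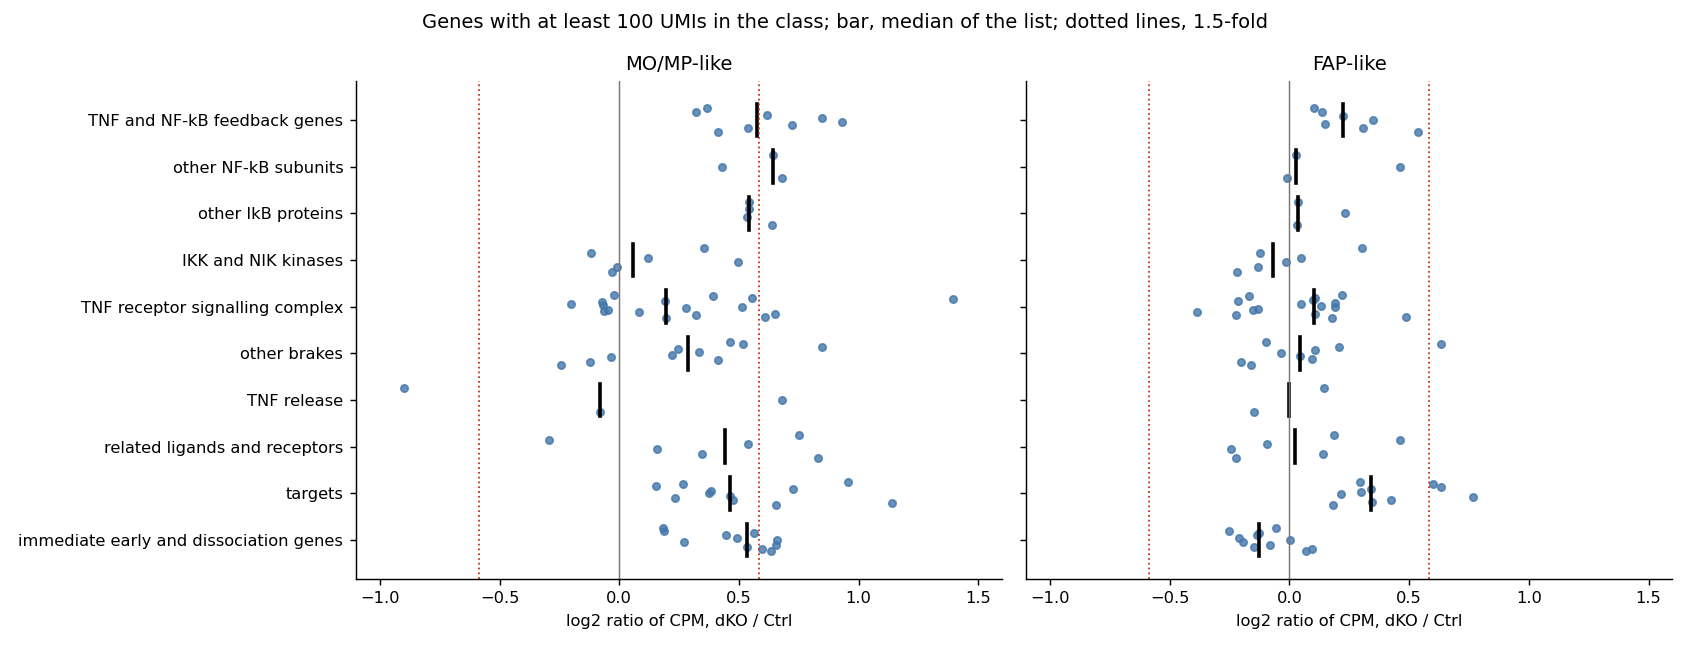
Log2 ratio of CPM, dKO over Ctrl (x axis), of genes with at least 100 UMIs in MO/MP-like (left) and FAP-like cells (right), by list (y axis); points are genes, black bars list medians and dotted lines 1.5-fold. In MO/MP-like cells the bars of subunits, IkB proteins, targets and immediate early genes lie well to the right of 0. That of the kinases lies near 0. In FAP-like cells the targets and the 7 feedback genes tested have the bars farthest to the right, and the immediate early genes lie below 0.

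Across 12 classes and both libraries, which give 24 values per gene, the levels of the 8 genes were compared by Pearson's r of log2(CPM + 10). These values share libraries and depth and are given as a description. Tnf was most like Tnfrsf1b among the 8 (r = 0.926), Nfkb1 was most like Tnfaip3 (r = 0.847) and Nfkbia was most like Nfkbiz (r = 0.789), while the receptors were hardly alike (r = 0.0960). Among 7288 genes, those closest to Tnf were Rap1b, Irak2 and Tnfrsf1b (r from 0.926 to 0.929). Tnfrsf1a was closest to Gng12, Cd9 and Rbms1 (0.897 to 0.911), and Nfkbia to Susd6, Fas and Fbxo34 (0.820 to 0.838). Nfkbiz was closest to Tgoln1, Nfkbia and Rabgef1 (0.779 to 0.806), Tnfaip3 to Ifi208, Nfkb1 and Peli1 (0.826 to 0.884) and Nfkb1 to Tnfaip3, Ifi208 and Sp110 (0.788 to 0.847). Relb had the weakest likeness, to Mbtd1, Mreg and Chuk (0.748 to 0.773).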

How the data were processed

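The authors digested hind limb muscle with collagenase, sorted live cells, made 10x Chromium libraries and deposited raw UMI counts of genes by cells. Per the labels these came from Cell Ranger 7.0.0 with the mm10 build, while the matrix header names version 3.0.2. No mitochondrial gene is listed (0 of 24984).

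Cells with at least 500 genes were kept (192 Ctrl and 154 dKO cells were left out). Scrublet (scanpy 1.11.5) called only 4 Ctrl and 14 dKO cells at its own threshold, so the 7.5% of cells with the highest scores (325 and 250) were removed, the rate the study used. Libraries were integrated in Seurat 5.3.0 (R 4.3.3) on 2000 variable genes, of which 23 from the pathway lists were dropped, with 40 dimensions, and clustered at a resolution of 0.8. Of 22 clusters, 20 were named from 18 marker lists by their 10 leading genes (highest CPM ratio to all other cells) and at least 3 enriched markers. This naming rule was set after the data had been seen. It left 2 clusters unnamed, among them the one led by Dcstamp.

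UMIs were summed per class and library. Ratios of CPM have exact conditional binomial intervals, levels exact Poisson intervals and shares of cells exact binomial intervals at 95%. Only the ratio intervals were checked, on simulated independent counts. That check does not cover UMIs that gather in single cells. Classes with at least 100 cells per library were compared over all genes, and classes with at least 20 were given levels. The text names all 8 genes in the classes compared, pathway and immediate early genes at 1.5-fold or more in MO/MP-like or FAP-like cells with up to 3 others per list, and the 3 most alike genes per member (at 50 CPM or more in at least 1 of the 24 values), of which those of Tnfrsf1b are not reported here. The 8 genes and all lists were chosen with earlier results of these data known. Doublets, cell filter, clustering genes, integration, resolution, scaling, averaging, depth, single cells, gene minimum and fold were varied.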

Additional observations from a re-analysis of the deposited data

How the results depend on the processing

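Over the 5 classes compared, the count of genes at 1.5-fold or more was recomputed under each alternative. It stayed within 1.5 times of the main count in MO/MP-like cells (3 to 5 genes in place of 4), except at a lower fold (log2 ratio of 0.32 in either direction), where 7 were counted. In FAP-like cells (main 0) the count was 1 without doublet removal (Tnf, log2 ratio of 2.05), 1 when scaled to the median gene (Nfkb1), 1 with a minimum of 20 UMIs (Tnf, 1.203) and 2 at the lower fold. In EC-like cells (main 1) it was 0 with cells of at least 200 genes, 0 with the mean of each cell's own CPM, 2 at 2000 UMIs per cell (Nfkbiz at a log2 ratio of 0.62 and Tnfaip3 at −0.67) and 5 at the lower fold, and without doublet removal the 1 gene was Tnfrsf1b (0.79) in place of Tnf (−0.54). In T cell-like cells (main 3) it was 1 without doublet removal (Tnfrsf1b), 1 with the mean of each cell's own CPM (Nfkbiz) and 0 at 2000 UMIs per cell. In dendritic cell-like cells (main 2) it was 1 without doublet removal, 1 with pathway genes used for clustering and 1 when scaled to the median gene, each time Relb, and 3 at 2000 UMIs per cell (Relb and both receptors) and with a minimum of 20 UMIs (Tnf added). Of the 10 differences (a gene in a class) counted in the main setting, 10 stayed past 1.5-fold without integration and without the top cell of each gene, 9 at a resolution of 1.2, 6 without doublet removal, 6 with the mean over cells and 5 at 2000 UMIs per cell, and none of these 10 changed direction under any alternative. The log2 ratios in MO/MP-like cells ran from 0.77 to 0.94 for Tnf, 0.82 to 0.98 for Relb, 0.59 to 0.76 for Nfkbiz and 0.45 to 0.65 for Tnfaip3. Counting the cluster led by Dcstamp, Ear2 and Retnla with MO/MP-like cells, and giving Tnf levels without the cell with most Tnf UMIs, were chosen after seeing the data. Where not stated above, the cause of a change was not tested. No paired analysis was possible because each group has 1 library. Precision is limited by 1 library per group and, in T cell-like, dendritic cell-like and EC-like cells, by the number of UMIs.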
